A study of Mus musculus with 2 samples.

Results

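Ccr2 and the genes of its chemokine ligands Ccl2, Ccl7 and Ccl12 were followed through single-cell RNA-Seq of mouse mitral valve leaflets. These 4 genes were taken by symbol from the 32285 features of each count matrix. One library came from WT mice (Fbn1+/+ littermates) and the other from mgR mice (Fbn1 mgR/mgR), which are homozygous for a hypomorphic allele of Fbn1 and make too little fibrillin-1. The mice were 12 weeks old. The mgR allele is carried in every tissue, so these mice model Marfan syndrome as a whole and not the valve alone. Cells were freed from the leaflets with collagenase and elastase, and a sort for viability preceded capture. The labels do not say how many animals went into a library, and a legend of the study gives a group size for these data without saying whether those animals were pooled. Each genotype is represented by 1 library. Differences between genotypes therefore have no replicate check and are given without a test or P value. Ranges in parentheses are 95% intervals that account for counting error alone.

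CCR2 is a chemokine receptor on the surface of monocytes and of several kinds of leukocyte derived from them, and on subsets of T cells. CCL2, also known as MCP-1, is its best-known ligand in mice. CCL7 (MCP-3) and CCL12 (MCP-5) bind the same receptor. The ligands are secreted by stromal cells and by macrophages, and a gradient of them draws CCR2-positive monocytes out of the bone marrow and into inflamed tissue. Leukocytes in the mitral valve were among the subjects of the study, and the data were read here for which cells held the ligand transcripts and which held the receptor transcript.

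Ccr2 (ENSMUSG00000049103) lies at chr9:124101950-124113557 on the plus strand of GRCm38, and no other annotated gene overlaps it. The ligand genes lie close together on chromosome 11, all on the plus strand. Ccl2 (ENSMUSG00000035385) is at chr11:82035571-82037453, Ccl7 (ENSMUSG00000035373) at chr11:82045712-82047525 and Ccl12 (ENSMUSG00000035352) at chr11:82101845-82103400, with Ccl11 between Ccl7 and Ccl12 and Ccl8 downstream of Ccl12. Each ligand transcript has 3 exons. Only Ccl2 is overlapped, by Gm17268, a gene model of the opposite strand whose exons lie outside Ccl2. The ligand transcripts resemble each other, which matters for a count that assigns each read to 1 gene. The stretches below are coding sequence from exons 1 and 2 of the GENCODE transcripts and are shown because they hold the feature that names the CC family. The capitals mark the codons of the paired cysteines.
Ccl2: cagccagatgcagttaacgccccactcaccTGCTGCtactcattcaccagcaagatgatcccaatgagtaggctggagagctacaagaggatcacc
Ccl7: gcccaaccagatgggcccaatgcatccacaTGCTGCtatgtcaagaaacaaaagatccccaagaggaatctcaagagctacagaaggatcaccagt
Ccl12: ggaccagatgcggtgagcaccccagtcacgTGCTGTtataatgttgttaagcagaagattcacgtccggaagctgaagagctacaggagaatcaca
Over these 96 bases Ccl2 was 67.3% identical to Ccl12 and 62.7% identical to Ccl7, and Ccl7 was 62.7% identical to Ccl12. Over the last 300 bases of the transcripts, where libraries of the 3-prime kit named in the labels are read, the longest run of bases that any pair shared was 9 for Ccl2 and Ccl7, and 8 for each of the other pairs. Over whole transcripts the longest shared runs were 23 bases for Ccl2 and Ccl7, 17 for Ccl2 and Ccl12, and 11 for Ccl7 and Ccl12.

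RefSeq upstream sequences (GRCm38.p6) were at hand for Ccr2 and Ccl12, 2 of the 4 genes. The 250 bases before the start of Ccl12, at chr11:82101595-82101844 on the plus strand, are shown because Ccl12 was the ligand found almost only in macrophages. The capitals mark a PU.1 core (GAGGAA) and a TATA box (TATAAA).
Ccl12 upstream: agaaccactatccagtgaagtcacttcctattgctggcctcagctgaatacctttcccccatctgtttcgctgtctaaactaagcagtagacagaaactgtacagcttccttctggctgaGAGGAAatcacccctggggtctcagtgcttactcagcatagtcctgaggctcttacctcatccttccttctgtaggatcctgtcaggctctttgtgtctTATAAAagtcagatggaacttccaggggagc
The PU.1 core began 130 bases before the start and the TATA box 31 bases before it. PU.1 is a transcription factor of the myeloid lineage. On either strand, 23.3% of the 32851 upstream sequences of the same length held the PU.1 core and 12.4% held TATAAA. Neither Ccl12 nor Ccr2 held an AP-1 site (TGANTCA, found in 6.75% of sequences), the NF-κB motif (4.11%) or the C/EBP core TTGCNNAA (9.56%), and Ccr2 held none of the 5 motifs.

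Filtering left 875 WT cells with a median of 5033 UMIs and 3438 mgR cells with a median of 7370 UMIs. Fbn1, the targeted gene, was at 167.0 CPM in WT fibroblasts and 118.1 CPM in mgR fibroblasts, where CPM is UMIs per 1000000 UMIs of the cells summed. According to the methods of the study its comparisons were restricted to males, but both libraries held cells with UMIs of Xist and none of Y-linked genes (Xist-only cells, 28.1% of WT and 60.8% of mgR cells) and cells of the reverse kind (Y-only cells, 38.5% and 21.1%). Each library thus held cells of more than 1 animal and of both kinds, in different proportions, and genotype ratios of the ligands are given within each kind as well. The 2 libraries shared 2 cell barcodes.

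Cells were classed by marker UMIs. A fibroblast held at least 10 UMIs of Col1a2, Col3a1 and Dcn, a macrophage at least 10 of C1qa, C1qb and C1qc, a dendritic cell at least 2 of Cd209a and a T cell at least 2 of Cd3e, Cd3d and Cd3g. This gave 350 WT and 1177 mgR fibroblasts, 222 and 1534 macrophages, 30 and 73 dendritic cells, and 89 and 151 T cells. Cells meeting more than 1 of these rules, 8 (WT) and 55 (mgR), were set apart as possible doublets. Such classes are ranges of a count. In the macrophage class 5 WT and 27 mgR cells lay between the threshold and its double, and 14 and 22 cells had from 5 UMIs up to the threshold. Markers that the rules did not use followed the classes. Pdgfra was at 202.1 CPM in WT fibroblasts and 4.77 CPM in all other WT cells, Csf1r at 816.1 and 43.0 CPM in and outside macrophages, Zbtb46 at 77.5 and 10.6 CPM in and outside dendritic cells, and Trbc2 at 872.9 and 3.10 CPM in and outside T cells. Remaining cells were classed as endothelial, neutrophil, monocyte or B cell. The 11 WT cells that met the monocyte rule, at least 3 UMIs of Ly6c2, Plac8 and Chil3, held no UMI of the monocyte genes Vcan or F13a1, and are called cells of the Ly6c2 rule.

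The receptor transcript was most abundant in T cells. In the WT library Ccr2 was at 338.9 CPM (283.5 to 401.9) in T cells, from 132 UMIs in 49 of 89 cells. It was at 108.5 CPM (72.1 to 156.9) in dendritic cells and at 36.7 CPM (27.4 to 48.1) in macrophages. The intervals of these 3 levels did not overlap. The 11 cells of the Ly6c2 rule held 1 UMI, so their place in the order was not resolved. In the mgR library Ccr2 was at 306.0 CPM (270.4 to 344.9) in T cells, from 268 UMIs in 99 of 151 cells. Cells of the Ly6c2 rule followed with 181.3 CPM (143.3 to 226.3), dendritic cells with 63.6 CPM (47.2 to 83.8) and macrophages with 32.2 CPM (29.3 to 35.4). These 4 intervals did not overlap.

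Cells that are not leukocytes gave the background. No Ccr2 UMI was found in 350 WT fibroblasts, which allows a level of up to 1.62 CPM, in 27 WT endothelial cells, or in 149 mgR endothelial cells, which allows up to 3.71 CPM. Neutrophils also held none, in 15 WT and 34 mgR cells. The mgR fibroblasts held 20 Ccr2 UMIs in 6 cells, 11 of them in 1 cell. Of these 6 cells, 5 held a UMI of Ptprc, the pan-leukocyte gene that encodes CD45, which was found in 1.78% of mgR fibroblasts. No fold is given against the 0 UMIs of WT fibroblasts.

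**Figure D1:**
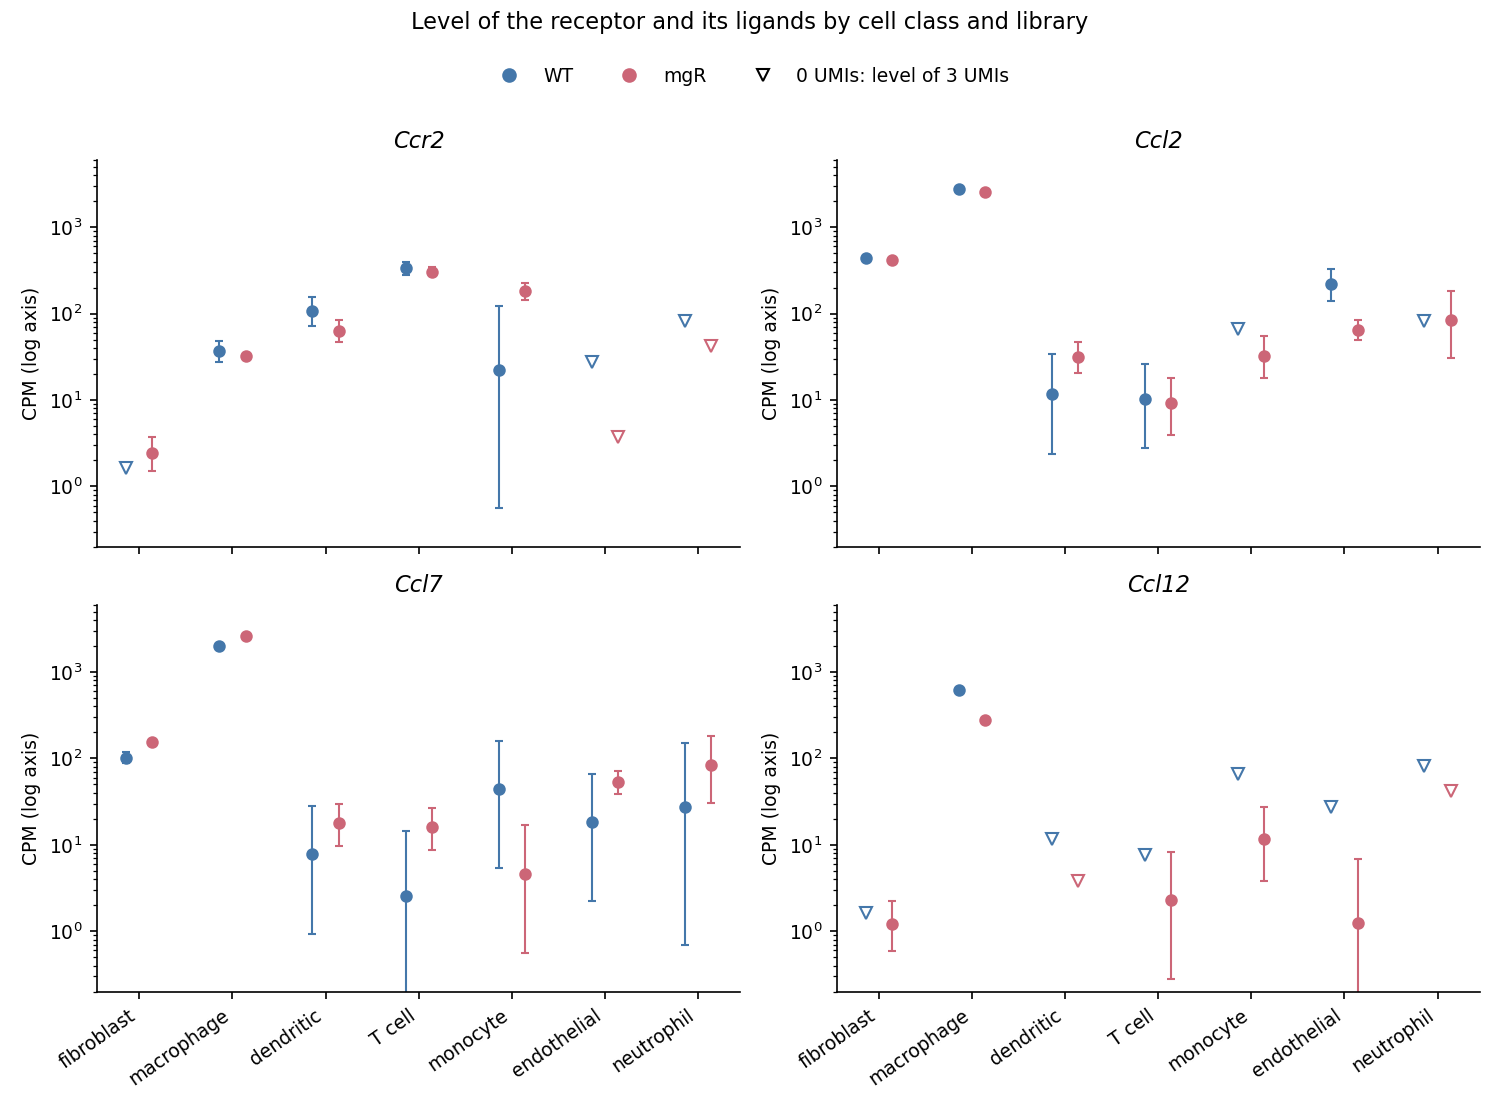
CPM on a log axis of the receptor gene and the 3 ligand genes in 7 cell classes, with WT in blue and mgR in red. Points are class sums with 95% Poisson intervals (bars that reach the axis go on below it) and open triangles mark 0 UMIs at the level that 3 UMIs would give. Ccr2 is highest in T cells, at 338.9 CPM in the WT and 306.0 CPM in the mgR library, and each ligand is highest in macrophages.

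The share of cells with a Ccr2 UMI depends on depth, and cells were therefore thinned to 2000 UMIs, leaving out shallower cells. A Ccr2 UMI was then found in 39 of 83 WT T cells (47.0%, 35.9 to 58.3) and 67 of 149 mgR T cells (45.0%, 36.8 to 53.3). In dendritic cells the shares were 6.67% (0.818 to 22.1) among 30 WT cells and 12.3% (5.80 to 22.1) among 73 mgR cells. In WT macrophages the share was 2.78% (1.03 to 5.95, from 6 of 216), and in mgR macrophages 4.90% (3.87 to 6.11, from 74 of 1510). Fibroblasts, the background, had 0 of 320 and 1 of 1141 (0.0876%). Shallower cells left out numbered 6 and 2 T cells, 6 and 24 macrophages, 30 and 36 fibroblasts, and no dendritic cell. Without thinning the shares were 55.1% and 65.6% of T cells at median depths of 4144 and 5062 UMIs, 36.7% and 42.5% of dendritic cells at 8605 and 10714 UMIs, and 11.3% and 9.71% of macrophages at 5998.5 and 8292 UMIs. At equal depth the mgR share minus the WT share was -2.02 points (-15.9 to 11.8) in T cells, 5.66 points (-11.1 to 17.1) in dendritic cells and 2.12 points (-1.21 to 4.25) in macrophages. None of these was detectable at this depth, and the intervals leave room for sizeable differences in T cells and dendritic cells.

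**Figure D2:**
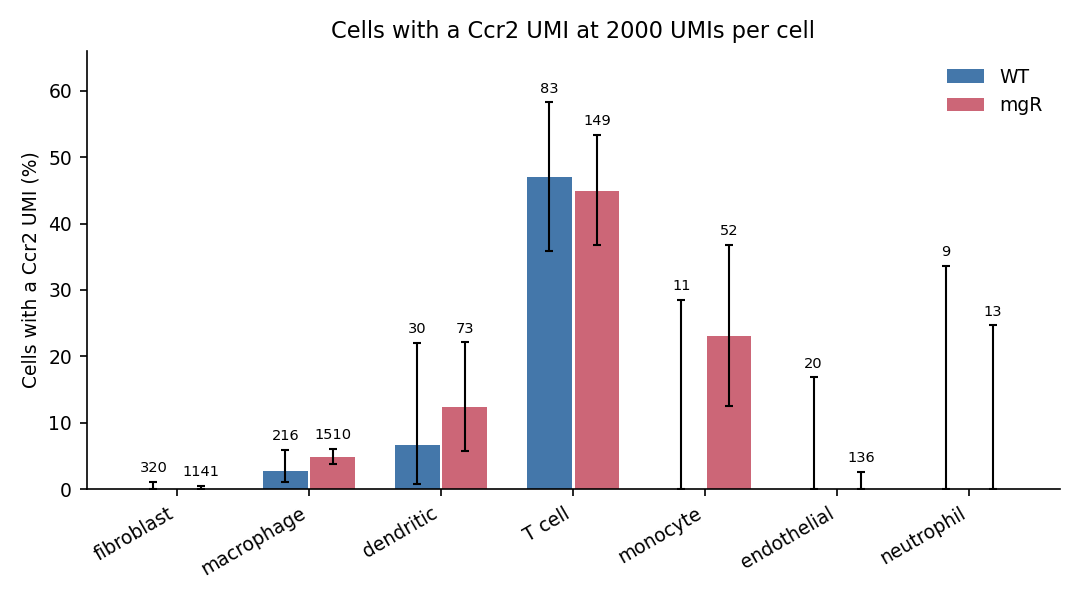
Percent of cells with a Ccr2 UMI after thinning to 2000 UMIs per cell, by class, with WT in blue and mgR in red. Bars are shares, lines their 95% exact binomial intervals, and the numbers above them the cells counted; T cells stand at 47.0% and 45.0%, above every other class.

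The level of Ccr2 within classes was next compared between genotypes. In T cells the mgR over WT ratio of CPM was 0.903 (0.730 to 1.12), and in macrophages 0.878 (0.657 to 1.19). Neither was beyond counting error. The T cell ratio was 1.16 (0.828 to 1.65) in Xist-only cells and 0.828 (0.580 to 1.19) in Y-only cells. The macrophage ratio turned under 2 settings, so its direction was not settled. It was 2.41 (1.07 to 6.72) at 2000 UMIs per cell and 1.87 (1.17 to 3.20) without the 10 highest cells of each library. Those 10 cells are a larger part of the 222 WT than of the 1534 mgR macrophages. Leaving them out therefore tends to raise the ratio by itself. In dendritic cells the ratio was 0.586 (0.362 to 0.967), but 10 of the 30 WT cells held 27 of the 28 WT UMIs, the ratio was 2.05 (0.438 to 19.3) at 2000 UMIs per cell, and it was 0.814 (0.451 to 1.53) without cells holding 3 or more marker UMIs of another class. The share with a Ccr2 UMI was higher in mgR dendritic cells at 2000 UMIs per cell and lower at 1000, where it was 6.67% of WT and 2.74% of mgR cells. The background for genes past 1.5-fold in dendritic cells was 18.2% lower and 16.8% higher in mgR, and for T cells it was 21.3% lower and 13% higher. Summed over all cells Ccr2 was at 52.9 CPM (WT) and 36.7 CPM (mgR), which is a ratio of 0.695 (0.603 to 0.803). The WT level of each class combined with the class sizes of the mgR library, in UMIs, gave 38.9 CPM. T cells, the class with the highest Ccr2, were 10.2% of WT cells and 4.39% of mgR cells. By number of UMIs, T cells held 54.5% of all WT Ccr2 UMIs and 27.3% of the mgR ones, and macrophages 21.5% and 43.9%.

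The T cells with Ccr2 were described by a list of T cell genes chosen after the levels of Ccr2 had been seen. Il7r, the receptor for interleukin-7, was at 2474 CPM in WT T cells with a Ccr2 UMI and 1500 CPM in those without, a ratio of 1.65 (1.32 to 2.07), and at 2187 and 1732 CPM in mgR T cells, a ratio of 1.26 (1.07 to 1.49). Cd8b1, a chain of the CD8 co-receptor, went the other way, with 0 UMIs against 9 in WT cells and 3 against 17 in mgR cells. Nkg7, a gene of cytotoxic granules, had 3 UMIs in WT cells with Ccr2 and 44 in those without. Trdc, which encodes the constant region of the T cell receptor delta chain and marks γδ T cells, was at 1897 CPM with Ccr2 and 1898 CPM without it in WT cells, and at 634.3 and 469.5 CPM in mgR cells, a ratio of 1.35 (0.981 to 1.86) there. Of the 20 genes, 1 was higher (Il7r) and 2 were lower (Cd8b1 and Nkg7) in cells with Ccr2 beyond counting error in both libraries. Of all 5207 genes with at least 10 UMIs in thinned T cells, 16 of the 20 among them, 0.25% were higher and 0.269% lower in both. Within single libraries 3 of the 20 were higher and 3 lower in the WT library, against 2.57% and 2.15% of all genes, and 1 and 3 in the mgR library, against 2.32% and 2.21%.

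The macrophages with Ccr2 differed from the others in the genes of both macrophage lists. In the mgR library 74 thinned cells had a Ccr2 UMI and 1436 had none. Of the 20 monocyte-derived cell genes, 13 were higher in cells with Ccr2 and 3 lower, and of the 15 resident macrophage genes 13 were lower and 0 higher, by intervals that left out 1. Of all 9667 genes with at least 10 UMIs in thinned macrophages, 18 of the monocyte-derived and all 15 of the resident genes among them, 4.77% were higher and 4.14% lower by the same rule. Plac8 was at 182.4 CPM in cells with Ccr2 and 9.75 CPM in those without, a ratio of 18.7 (10.6 to 32.9). Ly6c2, the classical monocyte surface gene, was at 155.4 and 16.02 CPM, and Chil3 at 60.8 and 1.74 CPM. The class II genes H2-Aa, H2-Ab1 and H2-Eb1, which present antigen, were 2.83, 2.87 and 3.17 times as high. The resident genes ran the other way. Lyve1, a hyaluronan receptor of perivascular resident macrophages, was at 67.6 CPM with Ccr2 and 791.8 CPM without, a ratio of 0.0853 (0.0409 to 0.157). Folr2 had a ratio of 0.177 (0.106 to 0.277) and Cbr2 of 0.204 (0.128 to 0.310). The exceptions in the monocyte list were F13a1 (0.295), which is also in the resident list, Fcrls (0.563) and Lyz2 (0.952).

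The WT library had 6 such cells, so only large differences could be seen. Of the monocyte-derived cell genes 6 were higher and 2 lower, and of the resident genes 0 and 5, against 1.44% of all genes higher and 0.507% lower. H2-Eb1 was at 13000 CPM with Ccr2 and 4900 CPM without, a ratio of 2.65 (2.24 to 3.12), and Lyve1 had 0 UMIs against 149. Of the monocyte-derived cell genes 6 were higher in both libraries, and of the resident macrophage genes 5 were lower in both, against 0.6% and 0.362% of all genes. Ly6c2, Plac8 and Chil3 had no UMI in WT macrophages at this depth.

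Macrophages with the receptor transcript held less of the ligand transcripts. In the mgR library Ccl2 was at 1845 CPM in macrophages with Ccr2 and 2614 CPM in those without, a ratio of 0.706 (0.623 to 0.796). Ccl7 had a ratio of 0.491 (0.424 to 0.566) and Ccl12 of 0.265 (0.132 to 0.477). Ccl8, a neighbouring chemokine gene, had a ratio of 0.106 (0.0607 to 0.173). In the 6 WT cells Ccl2 had 2 UMIs, Ccl7 had 7 and Ccl12 had 0, with ratios of 0.0643 (0.00778 to 0.233) and 0.311 (0.125 to 0.644) for Ccl2 and Ccl7. The intervals of all 3 ligands lay below 1 in both libraries, but those of the WT library rest on 6 cells and count UMIs as independent. By share of cells, Ccl2 was found in 33.3% of the 6 WT cells and 64.3% of the other 210. Ccl7 was found in 16.7% and 52.9%, and Ccl12 in 0% and 25.2%. The WT cells were too few to settle the pattern.

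**Figure D3:**
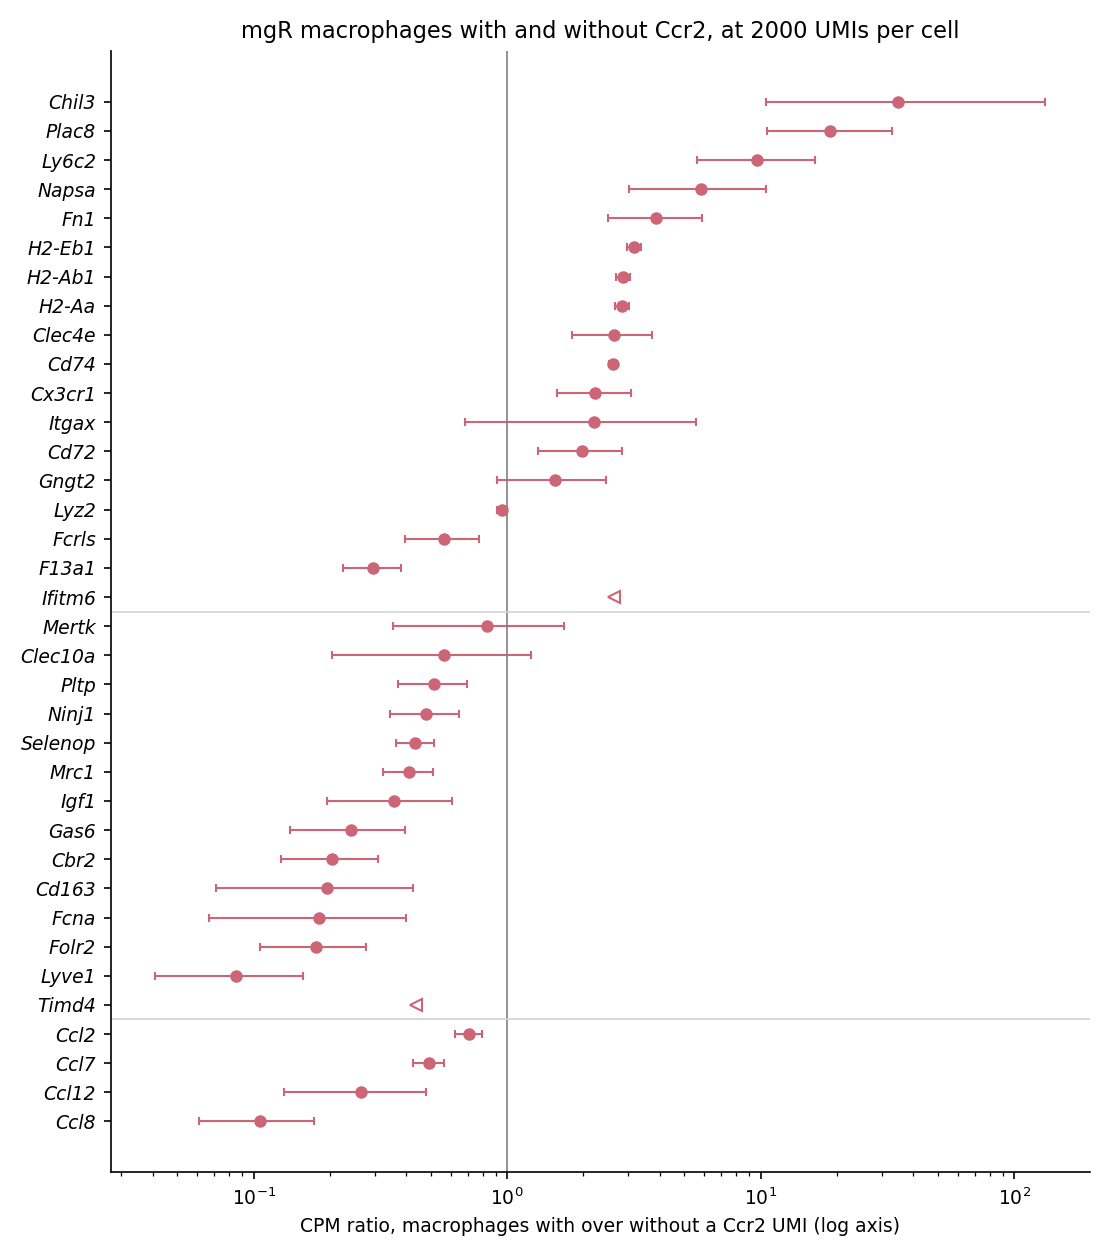
Ratio of CPM on a log axis between the 74 mgR macrophages with a Ccr2 UMI and the 1436 without, at 2000 UMIs per cell, for the genes with at least 10 UMIs of the monocyte-derived list (top), the resident list (middle) and the ligand locus (bottom). Points are ratios with 95% intervals and open triangles the upper limit where cells with Ccr2 held 0 UMIs; Plac8 stands at 18.7, Lyve1 at 0.0853 and Ccl2 at 0.706.

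Receptor and ligands were further compared between macrophage subsets defined by UMIs of subset genes, a split added after the values above had been seen. Macrophages with at least 2 UMIs of Lyve1, Folr2 and Cd163 and fewer than 2 of Cx3cr1 and Cd72 numbered 65 WT and 749 mgR cells. In the WT library they held 0 Ccr2 UMIs and in the mgR library 25, which is 3.87 CPM. Macrophages of the reverse kind numbered 84 and 324 and had Ccr2 at 75.4 and 69.96 CPM. Macrophages of neither kind, 46 and 194 cells, had it at 36.1 and 142.4 CPM, and those of both kinds, 27 and 267 cells, held 0 and 20 Ccr2 UMIs. Ccl2 went the other way, at 4200 and 3382 CPM in the former and 1515 and 1459 CPM in the latter. Ccl7 did likewise, at 3417 and 3613 CPM against 855.5 and 1066 CPM. Ccl12 did not share this pattern, with 207.6 and 245.9 CPM in the Lyve1, Folr2 and Cd163 subset and 354.9 and 301.0 CPM in the Cx3cr1 and Cd72 subset.

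The ligand transcripts were next traced to their sources. Macrophages held most of them in both libraries. Of the 4826 Ccl2 UMIs of WT cells 80.7% were in macrophages and 17.1% in fibroblasts, and of the 39508 in mgR cells 86.8% and 8.74%. Of the Ccl7 UMIs, 90.4% (WT) and 92.7% (mgR) were in macrophages and 5.98% and 3.31% in fibroblasts. Of the Ccl12 UMIs, 99.4% and 95.9% were in macrophages. Most of the rest lay in the mixed cells, with 3.94% of Ccl2, 3.56% of Ccl7 and 3.50% of Ccl12 UMIs in the mgR library.

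Ccl2 was at 2750 CPM (2665 to 2838) in WT macrophages and 2572 CPM (2544 to 2599) in mgR macrophages, and a UMI of it was found in 162 of 222 and 1254 of 1534 cells. In fibroblasts it was at 445.9 CPM (416.0 to 477.4) and 422.1 CPM (408.1 to 436.4), in 46 of 350 and 220 of 1177 cells. The macrophage level was above the fibroblast level in each library, with no overlap of the intervals. Endothelial cells had 219.8 CPM in the WT library, where 23 of 24 UMIs came from 1 cell, and 65.5 CPM in the mgR library, where neutrophils had 83.6 CPM (30.7 to 182.0) from 6 UMIs. T cells, at 10.3 and 9.13 CPM, and dendritic cells, at 11.6 and 31.8 CPM, held little, and no cell of theirs held 10 UMIs.

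Ccl7 was at 2016 CPM (1943 to 2092) in WT macrophages and 2639 CPM (2611 to 2667) in mgR macrophages, and at 102.2 and 153.6 CPM in fibroblasts. Ccl12 was at 616.3 CPM (576.1 to 658.6) and 279.6 CPM (270.7 to 288.7) in macrophages. Fibroblasts held no Ccl12 UMI (WT) and 10 (mgR), which is 1.22 CPM, each in a cell of its own. Dendritic cells held none in either library. Cells of the Ly6c2 rule held 0 Ccl12 UMIs (WT) and 5 (mgR), which is 11.6 CPM (3.77 to 27.1). Ccl12 was therefore mainly a transcript of macrophages in these libraries, whereas Ccl2 and Ccl7 were held by fibroblasts as well.

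Free macrophage RNA gives UMIs of these genes in any droplet, and the C1q genes were used to gauge it. In macrophages there were 20.7 Ccl2 UMIs per 100 C1q UMIs (WT) and 15.9 (mgR). In T cells the values were 36.4 and 13.6 and in dendritic cells 15.8 and 37.9, from few UMIs. In fibroblasts they were 2946 and 820.0. For Ccl7 fibroblasts had 675.0 and 298.3 UMIs per 100 C1q UMIs, against 15.2 and 16.3 in macrophages. For Ccl12 the mgR value was 2.38 in fibroblasts and 1.72 in macrophages. The Ccl2 and Ccl7 UMIs of fibroblasts thus far exceeded the macrophage proportion to C1q, and the few Ccl12 UMIs did not. C1q UMIs also set the classes, with macrophages at 10 or more and fibroblasts, dendritic cells and T cells below 10. The rule thus limits C1q in those classes and favours it in macrophages. The proportions are a description, and the part of free RNA was not tested. C1q UMIs were found in 8% of WT and 27.6% of mgR fibroblasts, so the load of macrophage transcripts differed between the libraries.

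Within fibroblasts the ligands sat in few cells. In the WT library 18 of 350 fibroblasts held 10 or more Ccl2 UMIs, the highest 150 and 120, and the 10 highest cells held 72.6% of the sum. In the mgR library 42 of 1177 did, the highest 770 and 460, and the 10 highest cells held 66.1%. The 10 highest fibroblasts held 0 C1q UMIs (WT) and 5 (mgR), and at least 40 and 54 UMIs of the fibroblast genes. The 5 lay in 4 of the mgR cells. Among fibroblasts with 10 or more Ccl2 UMIs, however, 16.7% (WT) and 40.5% (mgR) held a C1q UMI, against 8.22% and 26.4% of those without Ccl2, and none held 3. For Ccl7 the 10 highest fibroblasts held 87.8% (WT) and 59.1% (mgR) of the sum. At 2000 UMIs per cell a Ccl2 UMI was found in 10.9% (7.74 to 14.9) of WT and 9.64% (7.99 to 11.5) of mgR fibroblasts, against 3.61% and 2.68% of T cells thinned alike, as background. For Ccl7 the fibroblast shares were 4.38% (2.41 to 7.23) and 7.36% (5.91 to 9.03), against 1.20% and 4.03% of T cells, and their intervals overlapped those of T cells in both libraries.

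In macrophages the ligands were broadly spread. The 10 highest cells held 27.2% of the Ccl2 UMIs (WT) and 6.62% (mgR), and 24 and 179 cells were needed to hold 50% of them, which is 10.8% and 11.7% of the class. Ccl7 was spread alike, with 10.4% and 12.7% of macrophages holding 50%. Ccl12 was more concentrated. In the WT library 3 macrophages held 293, 142 and 81 Ccl12 UMIs, 59.1% of the class sum, and all 3 were Y-only cells. The same 3 cells held 116, 74 and 22 Ccl2 UMIs. In the mgR library the 3 highest cells held 7.02%.

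**Figure D4:**
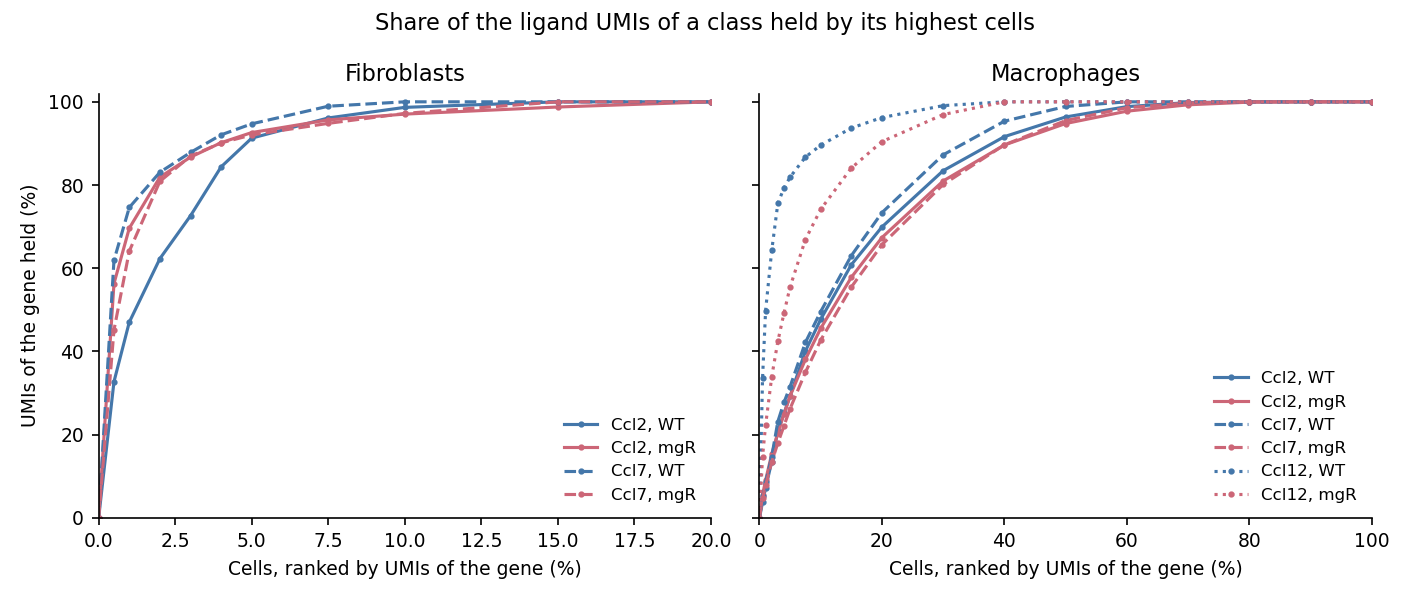
Percent of the UMIs of a ligand in a class (vertical) held by the given percent of its cells, ranked from the highest (horizontal, shown to 20% for fibroblasts), with WT in blue and mgR in red. In fibroblasts the curves reach nearly all UMIs within 10% of cells, and in macrophages 10.8% of WT and 11.7% of mgR cells hold 50% of Ccl2.

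Ccl7 and Ccl12 were found more often in macrophages with Ccl2 than in those without it. At 2000 UMIs per cell Ccl7 was found in 73.0% (64.7 to 80.2) of WT macrophages with Ccl2 and 15.2% (8.10 to 25.0) of those without it. In the mgR library the shares were 80.9% (78.4 to 83.3) and 33.3% (29.0 to 37.7). Ccl12 was found in 30.7% (23.1 to 39.1) and 13.9% (7.16 to 23.5) of WT macrophages with and without Ccl2, and in 25.2% (22.6 to 28.0) and 10.3% (7.68 to 13.3) of mgR macrophages. All 3 ligands were found in 13.4% of WT and 14.97% of mgR macrophages, and none in 26.4% and 19.5%. In fibroblasts Ccl7 was found in 14.3% (4.81 to 30.3) of WT and 30.9% (22.4 to 40.4) of mgR cells with Ccl2, and in 3.16% (1.45 to 5.91) and 4.85% (3.62 to 6.34) of those without.

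The genes most like Ccl2 over single cells were named by the lower Pearson correlation of the 2 libraries, a description over 350 and 1177 fibroblasts or 222 and 1534 macrophages that share depth within a library. Only genes found in at least 10% of cells were ranked, which left Ccl7 out in fibroblasts, where its correlation with Ccl2 was 0.44 in WT and 0.52 in mgR cells. Those ranked first there were the neutrophil chemokines Cxcl1 (r = 0.38 in WT and 0.31 in mgR cells) and Cxcl2 (0.28 and 0.28), the prostaglandin synthase gene Ptgs2 (0.38 and 0.26), the NF-κB inhibitor gene Nfkbia (0.24 and 0.24), Zfp36, whose product destabilizes cytokine mRNAs (0.26 and 0.23), Gadd45b (0.31 and 0.22), Ier3 (0.35 and 0.22) and the NF-κB subunit gene Nfkb1 (0.22 and 0.22). All these correlations were weak. In macrophages Ccl7 led (0.72 and 0.76), followed by Ier3 (0.44 and 0.47), Rgl1 (0.38 and 0.38), the platelet factor gene Pf4 (0.41 and 0.36), Lyve1 (0.43 and 0.36), the haem oxygenase gene Hmox1 (0.36 and 0.41), Cxcl2 (0.36 and 0.47) and F13a1 (0.42 and 0.35). Over the 16 levels of 8 classes in 2 libraries, the genes most like Ccr2 were Galnt6 (r = 0.96), Ccl5 (0.95), Il7r (0.93), Klrk1 (0.92), Mcm5 (0.92), Cdk1 (0.91), Ccna2 (0.91) and Pclaf (0.91), of which the last 4 are genes of DNA replication and cell division. Small classes, with 6 and 8 B cells, weigh as much as large ones in this measure.

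The ligands were then compared between genotypes within their source cells. In macrophages Ccl2 was at nearly the same level, with an mgR over WT ratio of 0.935 (0.904 to 0.967). This ratio did not hold its direction. It was 1.14 (1.09 to 1.18) without the 10 highest cells of each library, 1.13 (1.06 to 1.20) in Xist-only cells and 0.746 (0.709 to 0.786) in Y-only cells. Leaving out 10 cells of each library removes a larger part of the smaller WT class, which tends to raise the ratio. Ccl7 was higher in mgR macrophages, with a ratio of 1.31 (1.26 to 1.36), and 65.8% of mgR macrophages had a Ccl7 UMI at equal depth against 51.9% of WT macrophages, a difference of 14.0 points (6.72 to 21.3). The ratio was 1.64 (1.57 to 1.72) without the 10 highest cells and 1.56 (1.45 to 1.67) in Xist-only cells, but 0.904 (0.855 to 0.956) in Y-only cells.

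Ccl12 had the largest difference of the ligands in macrophages, a ratio of 0.454 (0.421 to 0.489), and it rested on few WT cells. Without the 10 highest cells of each library the ratio was 1.86 (1.59 to 2.19), in Xist-only cells 1.13 (0.939 to 1.36), and in Y-only cells 0.221 (0.197 to 0.247). The first of these values leaves out 10 of 222 WT and 10 of 1534 mgR macrophages, which tends to raise it. At equal depth 24.5% (19.0 to 30.8) of WT and 20.5% (18.5 to 22.6) of mgR macrophages had a Ccl12 UMI, a difference of -4.07 points (-10.7 to 1.90) that was not detectable. The median log2 ratio of the 7938 genes with at least 100 UMIs in macrophages was 0.11, so the median gene was slightly higher in mgR macrophages, and relative to it the ratios of Ccl2, Ccl7 and Ccl12 were 0.868, 1.22 and 0.421.

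The ratio of Ccl2 in fibroblasts was 0.947 (0.877 to 1.02). Xist-only fibroblasts gave 1.05 (0.914 to 1.21) and Y-only fibroblasts 0.919 (0.825 to 1.02). Thinning each cell to 2000 UMIs, which weights cells alike, gave 0.523 (0.456 to 0.600). Ccl7 had a ratio of 1.503 (1.29 to 1.76). It was higher in the mgR library within both kinds of cells, at 10.5 (5.09 to 26.3) in Xist-only cells, from 7 WT UMIs, and 1.32 (1.10 to 1.58) in Y-only cells. Without the 10 highest cells of each library it was 4.97. That value leaves out 10 of 350 WT and 10 of 1177 mgR fibroblasts, which tends to raise it. The equal-depth share of fibroblasts with Ccl7 differed by 2.99 points (-0.216 to 5.57), which was within counting error, and at 1000 UMIs per cell it was 4.35% of WT and 3.34% of mgR fibroblasts. Of the 13183 genes with at least 10 UMIs in fibroblasts 12.8% were at least 1.5-fold higher and 12.5% at least 1.5-fold lower in the mgR library, and of the 11934 genes in macrophages 17.5% and 11.6%. Ratios past 1.5-fold were thus common among these genes, many of which had few UMIs. Of the 8412 genes with at least 100 UMIs in fibroblasts, as Ccl7 had, 598 were at least 1.5-fold higher. With the prior count used for log2 ratios Ccl7 fell just short of 1.5-fold and was not among them. Of the 7938 such genes in macrophages, among them Ccl12, 430 were at least 1.5-fold lower. No share was counted at the size of the Ccl12 ratio.

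**Figure D5:**
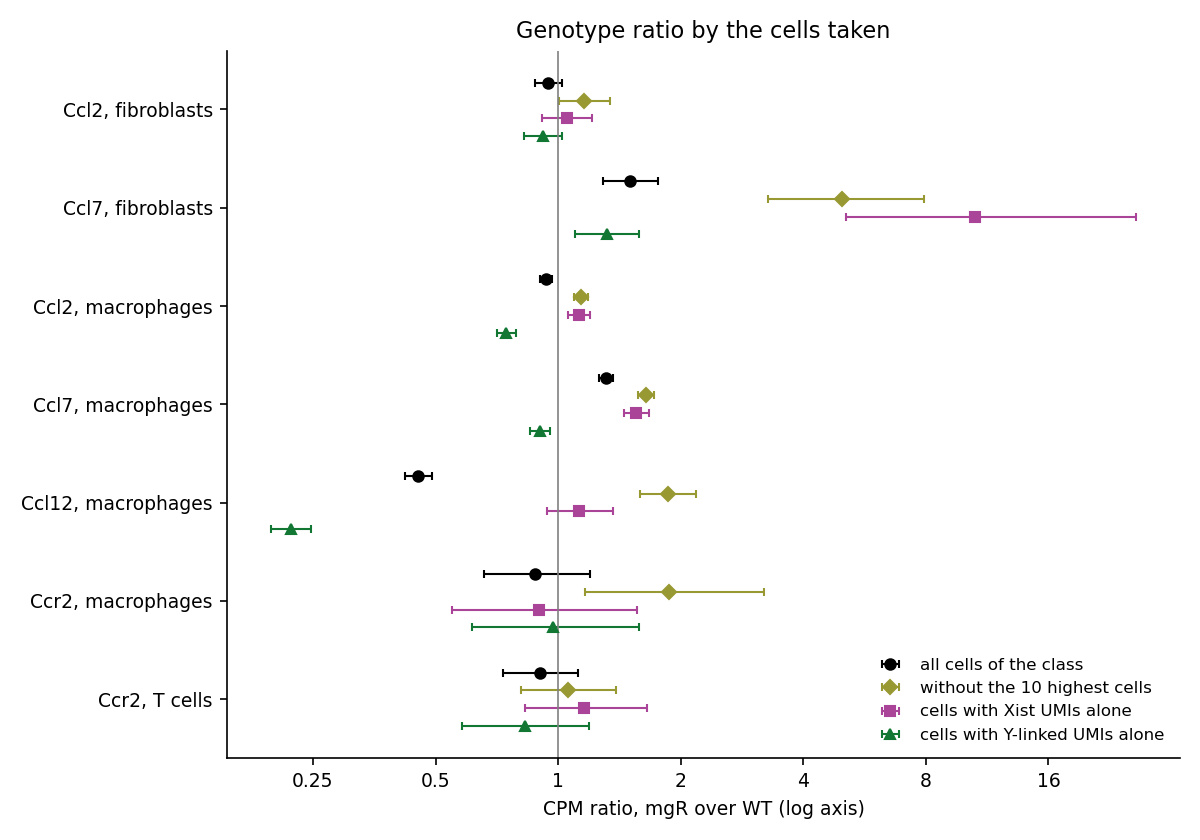
mgR over WT ratio of CPM on a log axis for ligands and receptor by class, with 95% intervals, over all cells of the class (black circles), without the 10 highest cells of each library (olive diamonds), and in Xist-only (purple squares) or Y-only cells (green triangles). Ccl12 in macrophages spans 0.221 to 1.86 and Ccl2 in macrophages 0.746 to 1.14, on both sides of 1. Leaving out 10 cells removes a larger part of the WT class, which tends to raise the ratio.

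Over all cells together Ccl2 was at 1054 CPM (WT) and 1481 CPM (mgR), which is a ratio of 1.40 (1.36 to 1.45). The class ratios were 0.947 in fibroblasts and 0.935 in macrophages, and neither kept its direction in every setting. Mixed cells, 8 WT and 55 mgR, had Ccl2 at 621.9 and 2020 CPM, with 52 of the 56 WT UMIs in 1 cell. Macrophages held 30.9% of WT UMIs and 50.004% of mgR UMIs. The WT level of each class combined with the mgR class sizes gave 1540 CPM, 1.46 times the WT level. For Ccl7 the ratio over all cells was 2.06 (1.99 to 2.14), and class sizes alone gave 1.55. For Ccl12 it was 0.760 (0.706 to 0.819), and class sizes alone gave 1.61. These ratios differed between the kinds of cells. Xist-only cells gave 1.73 for Ccl2, 2.65 for Ccl7 and 1.91 (1.59 to 2.30) for Ccl12, and Y-only cells 1.02 (0.978 to 1.07), 1.33 and 0.334 (0.299 to 0.375). The direction of Ccl12 over all cells was therefore not settled. Without the 10 highest cells of each library Ccl12 had 3.16. That setting leaves out a larger part of the 875 WT than of the 3438 mgR cells. The number of cells captured from a class also depends on digestion and sorting.

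The lists around the receptor and its ligands were read against those backgrounds, and their genes are described by counts and medians without a test. In macrophages 1 of the 4 measured genes of the ligand locus was past 1.5-fold higher and 1 lower. Ccl8, also a CC chemokine of monocytes, was the former, at 433.4 CPM in WT and 1022 CPM in mgR macrophages, a ratio of 2.36 (2.18 to 2.56), and Ccl12 was the latter. Of the 6 measured CC chemokine receptors 1 was lower and none higher, Ccr9 with 2 WT and 8 mgR UMIs and an interval that held 1, with a median log2 ratio of -0.35 against 0.09 over all genes. Of the 12 CCR2 signal transduction genes 1 was lower, the kinase gene Jak2, at 0.574 (0.458 to 0.726).

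Among the 18 genes of ligand inducers and NF-κB, 5 were lower and 0 higher in mgR macrophages, with a median log2 ratio of -0.33. The interleukin-1 genes Il1a and Il1b, strong inducers of Ccl2, had ratios of 0.3604 and 0.418, Tnfaip3, a feedback inhibitor of NF-κB, 0.475, Il6 0.634 and the adaptor gene Myd88 0.670. The 6 genes of ligand mRNA decay had a median of -0.35, with none past 1.5-fold. Of 11 other inflammatory chemokines 5 were lower, led by Ccl5 (0.271), Cxcl10 (0.370) and Ccl4 (0.417), and 2 higher, with Ccl6 at 2.41. Of the dissociation stress genes 3 of 17 were lower and 0 higher in mgR macrophages, with a median of -0.35 and a summed level of 11911 CPM in WT and 9810 CPM in mgR macrophages. The part of dissociation in these ratios was not tested.

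The macrophage lists also differed. Of 15 resident macrophage genes 8 were higher and 0 lower in mgR macrophages, with a median of 0.70. Lyve1 went from 366.4 to 807.2 CPM, Folr2 from 376.3 to 733.2 CPM, Cbr2 from 333.2 to 744.7 CPM and Fcna from 78.4 to 235.9 CPM. Of 19 measured monocyte-derived cell genes 6 were higher and 8 lower, with a median of -0.29. Ly6c2, Plac8 and Chil3 had 0 UMIs in WT macrophages and 273, 267 and 65 in mgR macrophages. Against the limit of 3 UMIs in the WT library, with UMIs counted as independent, they were at least 9.66-fold, 9.45-fold and 2.30-fold higher. On the same footing the exact lower limits of their ratios, which allow for counting error in both libraries, were 7.81, 7.63 and 1.82. In thinned mgR macrophages, however, these UMIs lay in few cells. Ly6c2 was found in 10.8% of the 74 cells with Ccr2 and 0.696% of the 1436 without it. Plac8 was found in 9.46% and 0.696%, and Chil3 in 5.41% and 0.279%. The limits leave out this clustering and are not firm, and the share of macrophages with these genes was not compared between libraries. H2-Aa, H2-Ab1, H2-Eb1 and Cd74 were lower, with ratios from 0.477 to 0.543. The macrophage class of the 2 libraries thus differed in genes that also differed between cells with and without Ccr2, and the part of this in the ligand ratios was looked at only within the subsets. Within the Lyve1, Folr2 and Cd163 subset the ratio was 0.805 (0.766 to 0.847) for Ccl2, 1.06 (1.001 to 1.12) for Ccl7 and 1.18 (0.949 to 1.49) for Ccl12. Within the Cx3cr1 and Cd72 subset it was 0.963 (0.895 to 1.04), 1.25 (1.13 to 1.37) and 0.848 (0.728 to 0.992). No ratio was computed for macrophages of both or neither kind. Those of both kinds held 512 of the 873 Ccl12 UMIs of WT macrophages, with 293 and 142 in 2 cells. Their Ccl12 was at 2416 CPM (WT) and 419.0 CPM (mgR), Ccl2 at 4232 and 2510 CPM and Ccl7 at 3392 and 2855 CPM. In those of neither kind Ccl12 was at 320.4 and 109.7 CPM, Ccl2 at 1968 and 1105 CPM and Ccl7 at 1228 and 783.7 CPM.

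In fibroblasts the neutrophil chemokine genes Cxcl1 and Cxcl2 were higher in the mgR library, at 436.7 and 951.6 CPM (ratio 2.18, 2.03 to 2.35) and 168.6 and 343.5 CPM (ratio 2.04, 1.81 to 2.30), whereas the interval of Ccl2 held 1. Of 17 measured inducer and NF-κB genes 2 were higher and 3 lower. The lower ones were the receptor gene Tlr2 (0.618), Myd88 (0.646) and the NF-κB subunit gene Nfkb2 (0.653), and Il1b, with 6 WT and 300 mgR UMIs, was higher. Of 11 other inflammatory chemokines 6 were higher and none lower. Macrophage and monocyte transcripts were also higher in mgR fibroblasts, with 16 of 19 measured monocyte-derived cell genes past 1.5-fold higher, Lyz2 at 14.1 and 147.5 CPM and C1q genes together at 15.1 and 51.5 CPM. Their part in the fibroblast ratios of Ccl7 and Il1b was not tested. Of 17 dissociation stress genes 2 were lower in mgR fibroblasts, Hspa1a (0.595) and Hspa1b (0.369), with a median of 0.07.

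Dendritic cells and T cells held the receptor transcript and little of the ligands. In dendritic cells 2 of 4 measured CC chemokine receptor genes were lower in the mgR library, against 18.2% of all genes. They were Ccr2 and the lymph node homing receptor gene Ccr7 (0.631, 0.537 to 0.742). The Ccr2 ratio of 0.586 was 2.05 (0.438 to 19.3) at 2000 UMIs per cell, so its direction was not settled. Of 10 other inflammatory chemokine genes in dendritic cells 6 were higher and 1 lower, against 16.8% and 18.2% of all genes. In T cells 2 of 4 receptor genes were higher, among them Ccr7, from 7 WT and 53 mgR UMIs, and 7 of 15 inducer and NF-κB genes were lower. Of all genes in T cells 13% were higher and 21.3% lower. Cd74, a gene of class II presentation, was higher in mgR T cells, at 33.4 CPM in WT and 1069 CPM in mgR cells. Of 12 measured monocyte-derived cell genes, a list that holds Cd74, 7 were past 1.5-fold higher in mgR T cells, against 13% of all genes. C1q UMIs were found in 10.1% of WT and 25.8% of mgR T cells. The part of macrophage and monocyte transcripts in the T cell values was not tested.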

How the data were processed

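Mitral valve leaflet cells of WT and mgR mice, aged 12 weeks, were profiled with 10x Genomics 3-prime libraries, 1 per genotype. The deposited values are UMI counts for each gene in each barcode, made by the authors with Cell Ranger 7.1.0 on mm10, per the submitters' processing notes. Cells with 200 to 5000 genes and at most 10% mitochondrial UMIs were kept. Library depth was 5381844 UMIs (WT) and 28215539 UMIs (mgR) in 1104 and 3802 barcodes. Classes came from marker UMIs as described, with the 4 rules first. Cells meeting several rules were set apart, and no doublet caller was run. The 4 genes and all gene lists were chosen with earlier results of these data known.

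UMIs were summed per class and library and divided by the class total (CPM). Sums carry exact Poisson, shares exact Clopper-Pearson and CPM ratios exact conditional binomial intervals, at 95%. Intervals of share differences combine the limits of both shares as root sums of squares. UMIs are molecules, and intervals cover counting error only. A count of 0 allows up to 3. Cells were thinned to 2000 UMIs without replacement. List genes needed 10 UMIs in a class over both libraries, with a prior count of 0.5 for log2 ratios, and were counted past 1.5-fold. Up to 6 genes per list and class past 1.5-fold with an interval that left out 1 were eligible to be named, and 8 genes per likeness ranking, without mitochondrial, ribosomal protein and predicted genes. Likeness used log2 of 1 plus UMIs per 10000 over genes in at least 10% of cells, or log2 of CPM plus 1 over genes with at least 100 UMIs. Positions are from GENCODE M21. Intervals, thinning and ranking were tested on simulated data. The simulated counts for the intervals had no clustering of UMIs in cells, so that check covers counting error alone. The T cell list, the macrophage subsets and the limit on marker UMIs of other classes were added after values had been seen. Alternatives were other filters, doubled thresholds, thinning, per-cell means, scaling by the median gene, cells of 1 kind by sex-linked UMIs, and leaving out the 10 highest cells. The last removes the same number of cells from classes of unequal size, which tends to raise the mgR over WT ratio. Python 3.11.15 with numpy 2.4.6, scipy 1.17.1 and pandas 2.3.3 was used.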

Additional observations from a re-analysis of the deposited data

Results flagged for a closer look

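Ccl2 and Ccl7 in macrophages went opposite ways in the 2 kinds of cells. With Xist UMIs alone the mgR over WT ratio was 1.13 for Ccl2 and 1.56 for Ccl7, over 77 WT and 1038 mgR cells. With Y-linked UMIs alone it was 0.746 and 0.904, over 87 and 293 cells. All 4 intervals left out 1, but the difference between the kinds was not tested, since there was 1 library per genotype.

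Barcodes outside the filters also held UMIs of these genes. The 229 WT barcodes left out had 29 Ccl2 UMIs (36.1 CPM) and 21 Ccl7 UMIs (26.1 CPM) and none of Ccr2 or Ccl12. The 364 mgR barcodes left out had 133 Ccl2 UMIs (86.5 CPM), 112 Ccl7 UMIs (72.9 CPM), 20 Ccl12 UMIs (13.01 CPM) and 16 Ccr2 UMIs (10.4 CPM). Each of these levels was below that of the kept cells of its library.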

How the results depend on the processing

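No replicate could be left out and no paired analysis was possible because there is 1 library per genotype. Of 94 alternative values of the genotype ratios 17 lay on the other side of 1 from the reported ratio, 9 of them where the interval of the reported ratio left out 1 and 8 where it held 1.
Thinning to 2000 UMIs gave 0.523 for Ccl2 and 2.02 for Ccl7 in fibroblasts, 1.02 for Ccl2, 1.42 for Ccl7, 0.531 for Ccl12 and 2.41 for Ccr2 in macrophages, and 2.05 for Ccr2 in dendritic cells. The mean of per-cell values gave 0.521 and 1.08 for Ccl2 and Ccl7 in fibroblasts and 1.02, 1.40 and 0.564 for the 3 ligands in macrophages. Counting mixed cells in each class gave 1.15 for Ccl2 in fibroblasts and 0.968 in macrophages. Without the 10 highest cells the ratios were 1.16 and 4.97 for Ccl2 and Ccl7 in fibroblasts and 1.14, 1.64, 1.86 and 1.87 for Ccl2, Ccl7, Ccl12 and Ccr2 in macrophages. This setting removed a larger part of the smaller WT classes, which tends to raise these ratios. With Xist UMIs alone they were 1.05 and 10.5 in fibroblasts, 1.13, 1.56 and 1.13 for the ligands in macrophages and 1.16 for Ccr2 in T cells. With Y-linked UMIs alone the ligands in macrophages had 0.746, 0.904 and 0.221, and scaled by the median gene 0.868, 1.22 and 0.421. In the Lyve1, Folr2 and Cd163 subset they had 0.805, 1.06 and 1.18, and in the Cx3cr1 and Cd72 subset Ccl7 had 1.25 and Ccl12 0.848. Macrophages of both kinds, with 512 of the 873 Ccl12 UMIs of WT macrophages, lie outside these subsets. The subsets were chosen after seeing the data. The causes were not tested.
Without thinning the Ccr2 share of macrophages differed by -1.55 points. With a minimum of 100 UMIs, which tests fewer genes, 598 genes were higher and 542 lower in fibroblasts, and 974 and 430 in macrophages. Few cells, 30 and 73 dendritic cells and 6 WT macrophages with Ccr2, limit the values of those cells, and low depth the share of cells with a UMI.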
